A study of Rattus norvegicus with 6 samples.

Results

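Chemokines, interleukins and their receptors were followed in whole ovaries of 4-day-old female Sprague-Dawley rats kept in organ culture for 48 h. The family was taken as every gene whose only symbol in the array annotation begins with Ccl, Cxcl, Ccr, Cxcr or Il and a number, which gave 89 of the 14217 genes named on the array. The 3 control cultures had no factor added, and the 3 treated cultures received 50 ng/ml of recombinant human NT3, a neurotrophin protein. All ovaries, control and treated, were cultured in serum-free medium with albumin, a lipid-rich albumin supplement, ascorbic acid, transferrin and antibiotics. Each array measured RNA pooled from 2 to 3 ovaries, and the replicates are called biological without a statement on separate animals or litters, so p-values here reflect the spread among these 6 arrays alone, which may be technical.

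Chemokines are small secreted proteins that direct the movement of cells through receptors coupled to G proteins, and they are named CC or CXC after the spacing of their first cysteines. Many interleukins act through receptor chains that signal by JAK kinases and STAT factors, or, in the interleukin-1 family, by the adaptor Myd88 and NF-kappa-B. In the ovary the CXCL12 and CXCR4 pair guides germ cells to the gonad and has been described as a restraint on the activation of primordial follicles, while other chemokines recruit the leukocytes that act in ovulation and luteal regression. At this age most oocytes lie in primordial follicles, wrapped by flat granulosa cells.

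The values are MAS5 signals, which are brightness values for 1 probe set and have no fixed relation to transcript number, so that signals of different genes are not ranked against each other. A mean signal above 50 over the 6 arrays was reached by 41 of the 89 members, and 19 had a mean of at least 200. For each of the 17 members with several probe sets the brightest was used. The 41 brighter members were 10 CC chemokines, 10 CXC chemokines, 2 chemokine receptors, 6 interleukins, 12 interleukin receptors and the binding protein gene Il18bp. The other 48 lay at or below 50, where log2 differences had a median standard error (SE) of 0.73, against 0.20 above 50. In whole tissue, fewer cells of a type and less RNA per cell cannot be told apart.

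The arrays shared 1 scale, with median signals of 69 to 75, and their small number limits the precision of every value. Control replicate 2 stood apart in RNA quality, with a 3′ to 5′ signal ratio of 6.83 for beta-actin against 2.42 to 2.91 on the other arrays. Some of the results that rest on it are given without it as well. The tissue label was borne out by its markers, since all 14 ovary genes on the array were above 50, among them the zona pellucida gene Zp3 at 3544 to 4500.5. Of 21 macrophage markers 19 were above 50, but of 20 lymphocyte and natural killer cell markers only Cd3d, Cd3g and Lck, and the T cell gene Cd3e had signals of 15.6 to 35.7.

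No member differed between NT3 and control by limma, a test that borrows the spread across all probe sets. The call rule, a Benjamini-Hochberg adjusted p under 0.05, was met by 0 of 31042 probe sets, or 0%, and the lowest adjusted limma p among the 89 members was 1.00. An unadjusted limma p under 0.05 was reached by 0 of the 89 members, against 2.14% of all genes, and by 0 of the 41 brighter members, against 1.15% of all genes above 50. Of the 41, 22 had a higher and 19 a lower mean log2 signal in NT3, with a median log2 fold change of 0.0051. All 10309 genes above 50 had a median of -0.0073. The 41 differences ran from -0.51 for Cxcl11 to 0.53 for Cxcl6. For 37 of the 41, the 95% interval lay within a 2-fold difference to either side, and the exceptions were Cxcl6, Cxcl11, Cxcl3 and Il15. The intervals give the differences that 3 arrays per group leave possible.

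**Figure D1:**
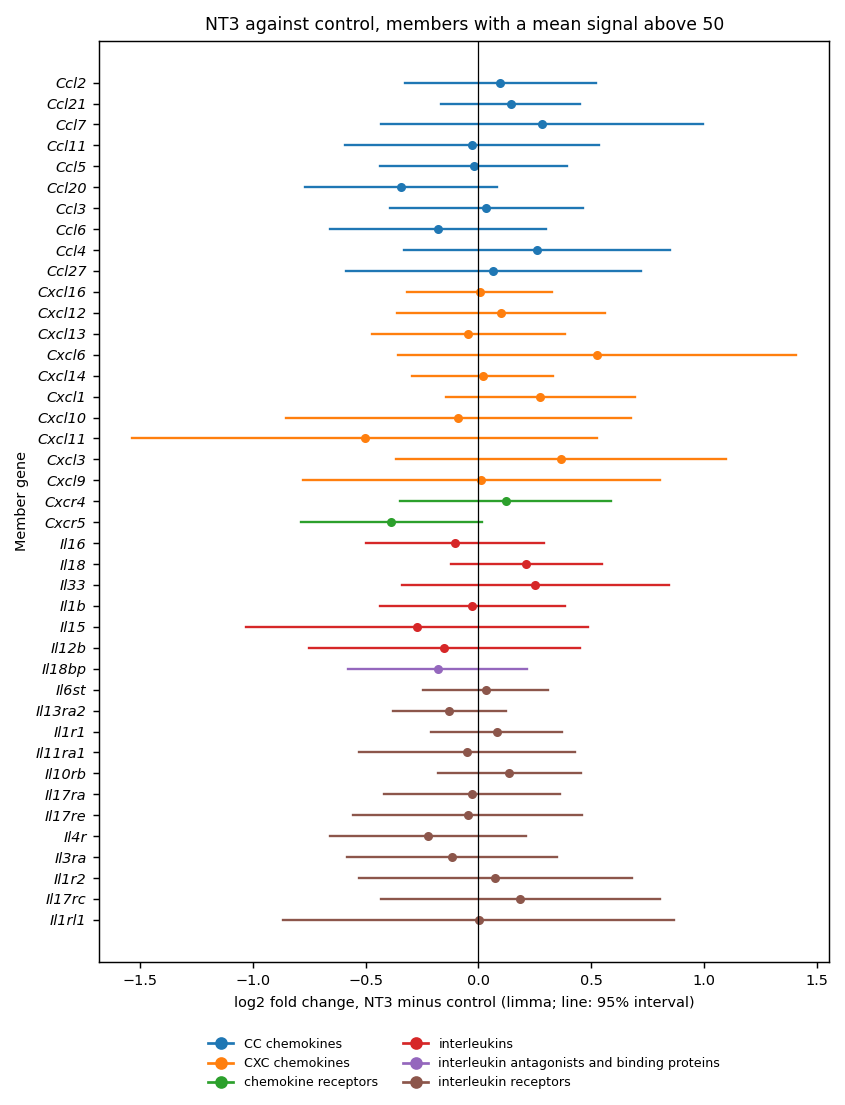
Log2 fold change (NT3 minus control, horizontal axis) of the 41 members with a mean signal above 50, coloured by role, with points for limma estimates and lines for 95% intervals. Every interval includes 0, and the estimates run from -0.51 (Cxcl11) to 0.53 (Cxcl6).

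The promoters of the members were searched for motifs of NF-kappa-B and of the interferon response, which the choice by symbol did not use. The kappa-B motif, bound by NF-kappa-B, was searched on both strands as GGG, any 3 bases and TTCC, in the 250 bases before the annotated start (RefSeq, GRCr8). It was present in 9 of 21 chemokine ligand promoters, or 42.9%, in 3 of 26 receptor promoters, or 11.5%, in 1 of 18 interleukin promoters, or 5.56%, and in 4.53% of 27457 promoters in the table. The interferon-response motif was searched on both strands as GAAA, any 2 bases and GAAA. It was present in 2 of the 21 ligand promoters, or 9.52%, and in 3.29% of all. Among interleukin promoters it was present in 2 of 18, or 11.1%, and among receptor promoters in 1 of 26, or 3.85%. Promoter entries were matched for 67 of the 89 members, and there was none for Ccl2. The shares count genes regardless of signal, the matched ligands being Ccl6, Ccl7, Ccl9, Ccl20, Cxcl1, Cxcl2, Cxcl6, Cxcl10 and Cxcl11. The other 12 ligands hold no kappa-B match, among them Cxcl9, Cxcl12, Cxcl13, Cxcl14, Cxcl16 and Ccl21. A match describes letters in this window, not a bound site. Promoters of 5 ligands are shown with matches to both motifs in capitals. They were picked with the signals known, because they hold a match and their NT3 arrays spread widely. The controls of Cxcl6 spread more widely still, with an SD of 191 against 165 in NT3. Cxcl9, whose NT3 arrays also spread widely, holds no match to either pattern as written above. Other spellings of the motifs were not searched. Cxcl1 lies at chr14:17479322-17479571 on the minus strand, Cxcl6 at chr14:17596418-17596667 on the minus strand, Cxcl10 at chr14:15988816-15989065, Cxcl11 at chr14:15973478-15973727 and Ccl7 at chr10:67513845-67514094, the last 3 on the plus strand.
Cxcl1: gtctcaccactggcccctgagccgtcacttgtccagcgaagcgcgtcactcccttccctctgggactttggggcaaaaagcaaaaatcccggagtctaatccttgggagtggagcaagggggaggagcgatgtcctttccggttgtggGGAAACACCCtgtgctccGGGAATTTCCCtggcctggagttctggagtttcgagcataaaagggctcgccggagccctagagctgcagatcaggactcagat
Cxcl6: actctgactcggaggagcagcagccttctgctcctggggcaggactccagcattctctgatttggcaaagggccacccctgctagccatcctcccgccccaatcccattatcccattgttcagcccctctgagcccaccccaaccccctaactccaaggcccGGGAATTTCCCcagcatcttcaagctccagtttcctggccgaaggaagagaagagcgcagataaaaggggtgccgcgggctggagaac
Cxcl10: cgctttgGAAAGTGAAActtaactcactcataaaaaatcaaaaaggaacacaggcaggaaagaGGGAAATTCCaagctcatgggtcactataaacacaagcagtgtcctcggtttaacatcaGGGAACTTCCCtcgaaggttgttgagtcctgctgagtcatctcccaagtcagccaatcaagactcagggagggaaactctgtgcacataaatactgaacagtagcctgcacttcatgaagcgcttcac
Cxcl11: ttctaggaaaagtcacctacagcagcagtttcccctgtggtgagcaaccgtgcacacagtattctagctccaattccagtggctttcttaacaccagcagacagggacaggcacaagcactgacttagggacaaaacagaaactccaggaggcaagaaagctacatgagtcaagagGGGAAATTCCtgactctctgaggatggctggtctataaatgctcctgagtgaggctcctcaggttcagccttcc
Ccl7: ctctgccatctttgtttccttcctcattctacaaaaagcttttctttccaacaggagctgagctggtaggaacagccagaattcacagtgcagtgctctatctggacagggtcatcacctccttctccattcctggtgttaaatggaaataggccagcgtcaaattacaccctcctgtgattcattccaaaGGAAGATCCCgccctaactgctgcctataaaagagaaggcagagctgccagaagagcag
In Cxcl1 the capitals are kappa-B matches that begin 102, 84 and 83 bases before the start, the last 2 being 1 palindrome-like stretch read on both strands. In Cxcl6 the matches begin at 88 and 87 bases and also overlap in this way. Cxcl10 holds the interferon-response match 243 bases before the start and kappa-B matches at 187, 128 and 127 bases. Cxcl11 and Ccl7 each hold 1 kappa-B match, at 74 and 59 bases.

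The CC chemokine Ccl2, the main attractant of monocytes, had signals of 1657.8, 1642.5 and 1701.2 in the controls, listed here and throughout by replicate number, against 2258.6, 1973.9 and 1271.8 with NT3. The controls lay close together, and the NT3 arrays lay on both sides of them, at 1667 ± 30.5 against 1835 ± 508 (SD, n = 3). The log2 fold change was 0.10 ± 0.19 (SE) with a limma p of 0.617. Ccl7, a related monocyte attractant, had 173.2, 238.2 and 194.9 in control and 377.5, 275.2 and 139.3 in NT3, again with NT3 replicate 3 below and the other NT3 arrays above every control. Its log2 fold change was 0.28 ± 0.32. Ccl11, the eotaxin gene that neighbours Ccl2 and Ccl7 in the RefSeq gene order, did not share this order of arrays. It had 221.1, 162.4 and 329.3 in control and 179.6, 244.2 and 253.7 in NT3, and its groups overlapped.

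Ccl3 and Ccl4, which attract monocytes and lymphocytes, are neighbours of each other and of Ccl6 and were also lowest in NT3 replicate 3. Ccl4 had 84.5, 115.1 and 83.3 in control and 123.8, 144.9 and 77.5 in NT3, and Ccl3 had 123.5, 120.5 and 154.2 against 150.8, 150.0 and 109.2. The lymphoid homing chemokine Ccl21 had 255.1, 311.7 and 290.7 against 326.1, 275.3 and 346.5, a log2 fold change of 0.14 ± 0.14. Ccl5, an attractant of T cells, had 180.1, 209.6 and 243.8 against 165.0, 245.4 and 217.5, with a log2 fold change of -0.02 ± 0.18. Both genes had overlapping groups.

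Ccl20, the ligand of Ccr6, was lower in NT3 in each of the 3 same-numbered pairs of arrays. Its signals were 153.1, 200.3 and 165.9 in control and 111.9, 166.5 and 134.0 in NT3. The log2 fold change was -0.34 ± 0.19 with a limma p of 0.102, which was 0.0433 when the replicate number was a block. Without control replicate 2, the highest array for Ccl20, the log2 fold change was -0.23 with a limma p of 0.240. Its receptor gene Ccr6 had signals of 1.8 to 31.1 and gave no usable level. The remaining CC members above 50 were Ccl6 and Ccl27, with log2 fold changes of -0.18 ± 0.21 and 0.07 ± 0.29, and the 6 below 50 were Ccl19, Ccl22, Ccl9, Ccl24, Ccl17 and Ccl28.

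**Figure D2:**
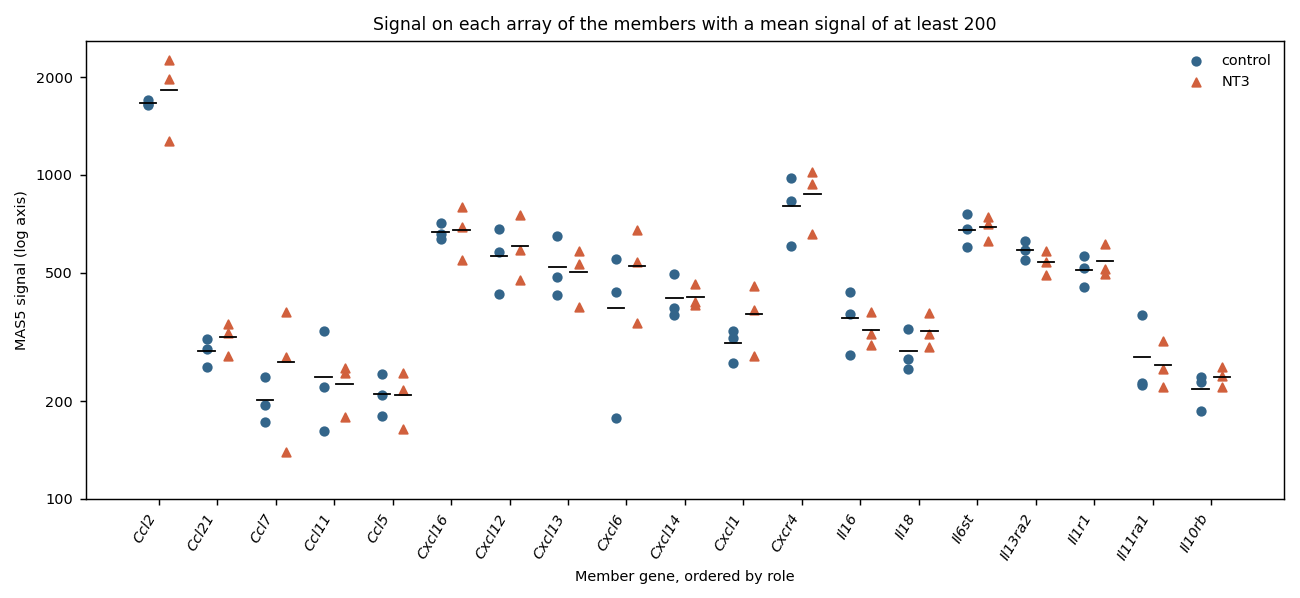
MAS5 signal (vertical log axis) on each of the 6 arrays for the 19 members with a mean signal of at least 200, with circles for control, triangles for NT3 and bars for group means. The groups overlap for all 19 genes, and the NT3 arrays of Ccl2 spread from 1271.8 to 2258.6 around controls of 1642.5 to 1701.2.

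Among CXC chemokines, Cxcl1, an attractant of neutrophils, had 330.9, 262.5 and 313.5 in control and 455.9, 382.2 and 276.6 in NT3. NT3 replicates 1 and 2 lay above every control and replicate 3 within their range, and the log2 fold change was 0.27 ± 0.19 with a limma p of 0.174. Cxcl6, another ligand of the neutrophil receptors, had 551.1, 177.9 and 436.2 against 678.5, 539.4 and 349.5. Its difference rested on control replicate 2, the array of lower RNA quality, and the log2 fold change of 0.53 ± 0.39 was 0.04 without it. Cxcl3, measured on a probe set that may share transcripts with close relatives, had 0.37 ± 0.32, and Cxcl2 lay below 50 at a mean of 39.3. The receptor genes Cxcr1 and Cxcr2 for this subgroup had mean signals of 6.47 and 4.30.

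The interferon-induced ligands of Cxcr3, Cxcl9, Cxcl10 and Cxcl11, are neighbours in the gene order and were each lowest in NT3 replicate 3. Cxcl10 had 174.6, 224.9 and 169.9 in control and 261.8, 224.6 and 94.2 in NT3. Cxcl11 had 89.5, 128.7 and 149.0 against 144.5, 112.6 and 36.9, and Cxcl9 had 51.1, 79.5 and 52.1 against 81.9, 73.4 and 36.2. The other NT3 arrays lay within or above the control range for all 3 genes. The log2 fold changes were -0.09 ± 0.34, -0.51 ± 0.46 and 0.01 ± 0.35, and without NT3 replicate 3 the estimates were 0.37, 0.09 and 0.38. Cxcr3 itself was below 50, at 23.7 to 42.5 on the 6 arrays, and Ifng, the gene of interferon gamma, had signals of 2.1 to 17.9.

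Of the 20 chemokine ligands above 50, NT3 replicate 3 was the lowest array for 10, which were Ccl2, Ccl3, Ccl4, Ccl6, Ccl7, Cxcl9, Cxcl10, Cxcl11, Cxcl13 and Cxcl16. NT3 replicate 1 was the highest array for 7, or 35%. The low NT3 replicate 3 was not particular to ligands. It was also the lowest array for 5 of the 14 receptors above 50, or 35.7%, with a median receptor deviation of -0.07. Over all genes above 50, NT3 replicate 3 was the lowest for 16.03% and NT3 replicate 1 the highest for 12.2%, and these counts are a description, since array order was looked at after the signals were seen. The median ligand deviated from its own mean by 0.22 and 0.21 on the log2 scale in NT3 replicates 1 and 2, and by -0.26 in NT3 replicate 3. In the controls this median lay between -0.08 and 0.03. The 3′ to 5′ ratio of NT3 replicate 3 for beta-actin was 2.78, against 2.82 and 2.91 on the other NT3 arrays. Its summed macrophage signal was 5786, the lowest of the NT3 arrays, against 5819 and 6473. The part of RNA quality or macrophage content in the low ligand signals of this array was not tested.

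Without NT3 replicate 3, which leaves 2 treated arrays, Ccl2, Ccl7 and Cxcl1 had unadjusted limma p-values of 0.0192, 0.00970 and 0.0177. The log2 fold changes were then 0.34 ± 0.12, 0.69 ± 0.20 and 0.47 ± 0.16, with group means for Ccl7 of 202 in control and 326 in NT3. The array was left out after it was seen to be low for such ligands, so these 3 of 41 members restate that order and support nothing further. The share of all genes above 50 that reached this level with NT3 higher was 0.795%, from which nothing is read. None of the 3 passed the adjusted test, at an adjusted limma p of 1.00. With NT3 replicate 3 included, all 3 unadjusted limma p-values were 0.174 or more.

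**Figure D3:**
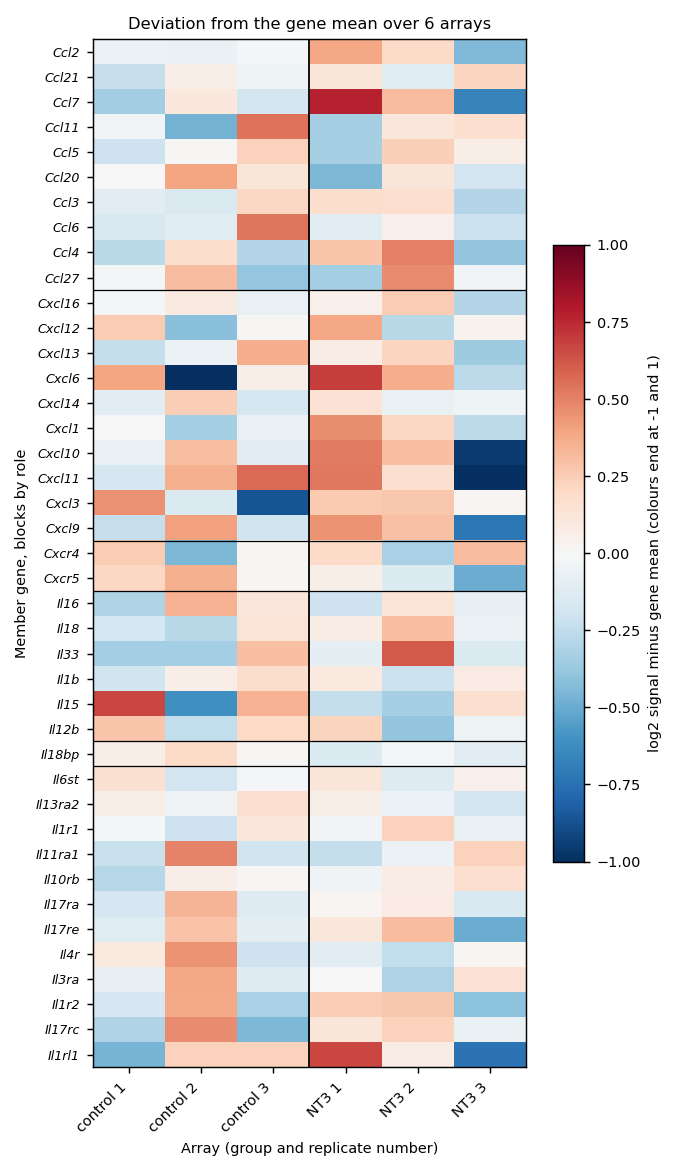
Heat map of the log2 signal minus the gene's mean over the 6 arrays for the 41 members above 50 (rows, in blocks by role) on each array (columns), red for higher and blue for lower, with colours ending at -1 and 1. In the upper blocks, which hold the 20 chemokine ligands, NT3 replicate 3 has a median of -0.26 and NT3 replicates 1 and 2 have 0.22 and 0.21.

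The remaining CXC members were close between the groups. Cxcl16, which is made as a membrane protein, had 657.4, 709.8 and 633.2 against 689.5, 793.9 and 545.5, with a log2 fold change of 0.01 ± 0.14 whose sign turned with quantile normalization. Cxcl13, the B cell attractant, had 427.1, 483.7 and 646.3 against 531.0, 584.6 and 392.5. Cxcl14 had 388.3, 496.1 and 369.8 against 460.7, 397.0 and 405.5. The 95% intervals of these 3 genes lay between -0.47 and 0.38.

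Cxcl12 and its receptor gene Cxcr4 shared a low replicate 2 in both groups. Cxcl12 had 682.6, 429.2 and 577.3 in control and 749.9, 473.3 and 586.0 in NT3, and Cxcr4 had 978.4, 603.5 and 832.1 against 940.3, 657.3 and 1021.1. Both genes were lowest in replicate 2 of each group, on all 3 probe sets of either gene. Control replicate 2 was also the array of lower RNA quality, whose part here was not tested. Ackr3, the scavenger receptor gene for the same ligand, showed the order as well, with 704.8, 507.0 and 594.2 against 852.4, 571.4 and 681.3. Such an order, replicate 2 lowest in both groups, held for 15.9% of all genes above 50. Of the 41 members 5, or 12.2%, had this order, the others being Il6st, Il15 and Il12b. The oocyte gene Gdf9 had it too, its controls being 1823.9, 1150.2 and 1618.3 and its NT3 arrays 1490.2, 925.7 and 1687.3, and its part in the Cxcr4 values was not tested.

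The log2 fold changes were 0.10 ± 0.20 for Cxcl12 and 0.12 ± 0.21 for Cxcr4, and -0.08 and -0.07 without control replicate 2. Cxcl12 was higher in NT3 in all 3 same-numbered pairs and Cxcr4 in 2 of 3. In the blocked fit the limma p was 0.320 for Cxcl12, 0.268 for Cxcr4 and 0.0470 for Ackr3, whose log2 fold change was 0.21 ± 0.17 with a limma p of 0.237 without the block. None of these passed adjustment. The Cxcr4 probe set is of a kind that can bind related transcripts, and the 2 other Cxcr4 probe sets also gave positive differences of 0.18 each.

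**Figure D4:**
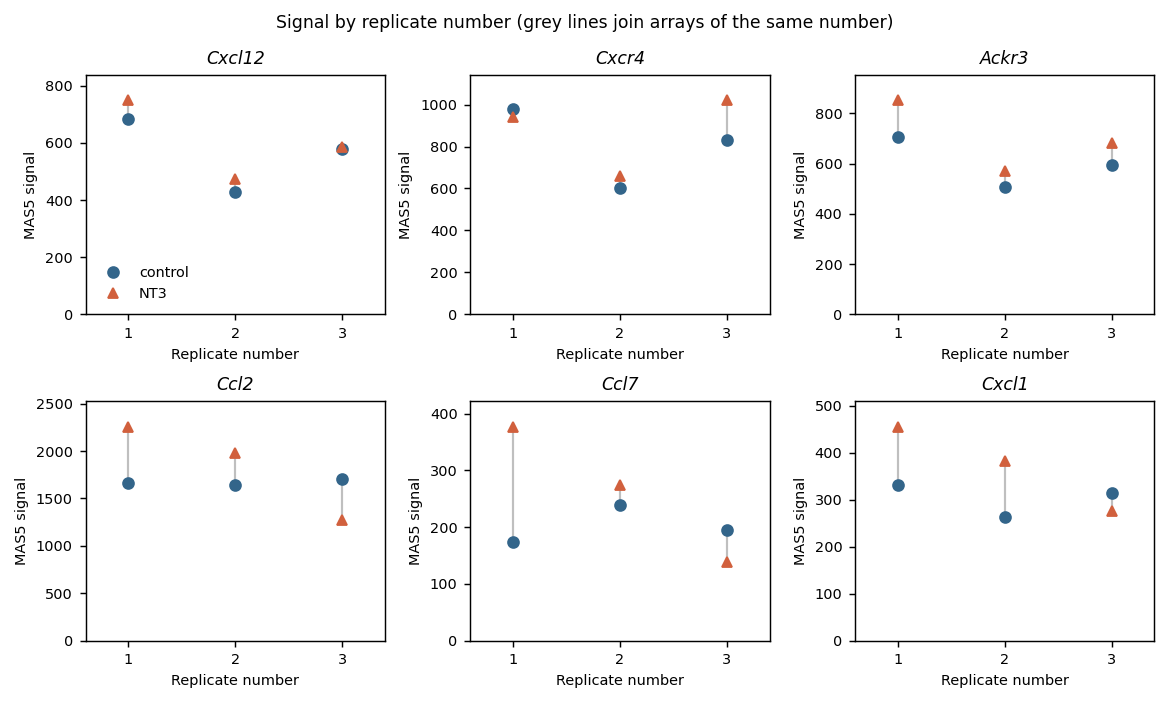
MAS5 signal (vertical axes, from 0) by replicate number for Cxcl12, Cxcr4 and Ackr3 (top) and Ccl2, Ccl7 and Cxcl1 (bottom), circles for control and triangles for NT3, with grey lines joining arrays of the same number. The top genes are lowest in replicate 2 of both groups, and the bottom genes are higher than control in NT3 replicates 1 and 2 and lower in replicate 3.

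Cxcr5, the receptor gene for Cxcl13, had the lowest p-value of all 89 members. Its signals were 195.9, 217.6 and 172.4 in control and 176.9, 154.3 and 120.6 in NT3, lower in all 3 same-numbered pairs but overlapping between the groups. The log2 fold change was -0.39 ± 0.18 with a limma p of 0.0581, and 0.0301 with the block. Without control replicate 2, the highest array for Cxcr5, the log2 fold change was -0.30 with a limma p of 0.125. Cxcr5 and Ccl20 were the only members with an unadjusted limma p under 0.05 in the blocked fit, 2 of 41 above 50 against 1.98% of all such genes, and neither passed adjustment. Its other probe set had a mean signal of 13.95 and also a negative difference. The other 9 chemokine receptors, Ccr1, Ccr2, Ccr3, Ccr4, Ccr6, Ccr10, Cxcr1, Cxcr2 and Cxcr3, had mean signals of 3.90 to 31.9. Ccr2, the receptor for Ccl2, had 2.3, 17.0 and 1.4 in control and 0.9, 0.5 and 1.3 in NT3.

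Among interleukins, the inflammasome product gene Il18 had 270.6, 252.2 and 334.0 in control and 322.2, 375.1 and 293.6 in NT3, with a log2 fold change of 0.21 ± 0.15 and a limma p of 0.186. Il18bp, whose product captures interleukin-18, had 94.7, 103.1 and 91.1 against 82.2, 89.2 and 83.3. It was the only member above 50 whose groups did not overlap, 1 of 41 lower in NT3 against 3.27% of all genes above 50, and 0 of 41 were separated with NT3 higher, against 2.35%. Its log2 fold change was -0.18 ± 0.18 with a limma p of 0.329.

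Il33, an alarmin of the interleukin-1 family, had 90.1, 90.5 and 140.8 against 107.6, 174.5 and 103.4, a log2 fold change of 0.25 ± 0.26, and its second probe set had a difference of -0.04. Its receptor gene Il1rl1 had 38.2, 62.0 and 61.8 against 83.7, 55.6 and 31.6. Il1b, a main inflammatory cytokine, had 98.8, 118.7 and 128.4 against 121.3, 97.9 and 119.9, with a log2 fold change of -0.03 ± 0.18. Il1a lay below 50. The antagonist gene Il1rn had signals of 1.4 to 9.2 on the 6 arrays, and Il36rn, the antagonist gene of the interleukin-36 branch, had a mean of 16.1.

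Il16, a ligand of CD4, had 278.8, 436.0 and 371.2 against 297.9, 377.3 and 324.1, with a log2 fold change of -0.10 ± 0.17. Il15, a growth factor for natural killer cells, had 111.1, 45.7 and 88.9 against 59.1, 55.6 and 78.1, and control replicate 2 was its lowest array. Without that array the means were 100 in control and 64.3 in NT3. The log2 fold change of -0.27 ± 0.34 became -0.65 ± 0.23, with an unadjusted limma p of 0.0225 and an adjusted limma p of 0.996. It was then the only member under 0.05, 1 of 41 above 50 against 2.75% of all such genes.

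The interleukins typical of T cells had low signals, with means of 5.32 for Il2, 1.83 for Il4, 11.1 for Il5, 4.12 for Il13 and 6.55 for Il17f. Il6 had 11.8, 28.7 and 19.7 in control and 24.1, 13.6 and 1.0 in NT3. Il7, Il34, Il10 and Il11 had means of 41.0, 37.1, 8.17 and 5.27. Their differences had SEs of up to 1.23 on the log2 scale.

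Interleukin receptors made up 12 of the 41 brighter members. Il6st, which encodes the shared signalling chain gp130, had 759.0, 597.7 and 678.8 in control and 742.8, 625.7 and 707.9 in NT3, with a log2 fold change of 0.03 ± 0.12 and a 95% interval of -0.24 to 0.31. Of its 3 other probe sets 2 had negative differences. Il11ra1, which pairs with gp130, had 224.3, 370.5 and 228.5 against 221.7, 251.1 and 307.1, at -0.05 ± 0.21, and 0.19 without control replicate 2. Il6r, which encodes another partner of gp130, lay below 50 at a mean of 43.4.

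Il1r1, the signalling receptor gene for interleukin-1, had 516.8, 452.4 and 563.3 against 512.2, 614.4 and 495.9, a log2 fold change of 0.08 ± 0.13, while both of its dimmer probe sets had negative differences. The decoy receptor gene Il1r2 had 77.6, 113.7 and 69.7 against 103.7, 105.4 and 65.7. Il1rap, the accessory chain, had a mean of 47.1. Il13ra2, a decoy for interleukin-13, had 588.1, 546.8 and 626.3 against 583.4, 537.3 and 491.3. It was lower in NT3 in all 3 same-numbered pairs, at -0.13 ± 0.11 with a limma p of 0.274, and the means were 587 ± 39.8 and 537 ± 46.1 (SD, n = 3).

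Il10rb, a chain shared by receptors for interleukin-10 and related cytokines, had 186.9, 237.6 and 229.1 against 221.3, 239.3 and 254.9, at 0.14 ± 0.14 and higher in NT3 in all 3 pairs. Il4r had 155.3, 197.9 and 125.4 against 134.8, 122.3 and 146.8, at -0.22 ± 0.19, and -0.06 without control replicate 2. Il17ra, Il17rc, Il17re and Il3ra had log2 fold changes of -0.03, 0.19, -0.05 and -0.12. Without control replicate 2 these were 0.13, 0.47, 0.08 and 0.05. The other probe set of Il17re, with a mean signal of 152 against 155, had a positive difference of 0.04 over all arrays. The leukocyte receptor chain genes Il2rg, Il7r and Il10ra had means of 41.8, 26.4 and 11.7. Control replicate 2 was the highest array for 7 of the 14 chemokine and interleukin receptors above 50, against 35.9% of all genes above 50. The median deviation of these receptors on that array was 0.31.

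By role, the median log2 fold changes of members above 50 were 0.05 for 10 CC chemokines, 0.02 for 10 CXC chemokines, -0.06 for 6 interleukins and -0.01 for 12 interleukin receptors. Single arrays left out moved them from -0.07 to 0.13 for CC chemokines and from -0.06 to 0.26 for CXC chemokines. NT3 was higher in all 3 same-numbered pairs for 2 of the 41 members, or 4.88%, and lower for 5, or 12.2%. Over all genes above 50 the shares were 9.66% and 11.4%. On the log2 scale the spread among NT3 arrays exceeded that among controls in 21 of the 41 members, or 51.2%, and in 36.5% of all genes above 50.

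Genes that act with this family were counted from lists made up around the members. Of 22 chemokine system genes outside the rule, such as Ackr3 and the membrane chemokine gene Cx3cl1, 7 were higher in NT3 and 15 lower. Their median log2 fold change was -0.06. None had an unadjusted limma p under 0.05. In the blocked fit 2 of the 15 above 50 did, Ackr3 and Cd74, against 1.98% of all such genes. Cd74, a receptor gene for the cytokine MIF, had a blocked limma p of 0.0357 against 0.390 without the block. Of 35 genes of receptor signalling 16 were higher and 19 lower, with a median of -0.02. In the blocked fit 2 of the 29 above 50 had an unadjusted limma p under 0.05, Tab1 and Stat5a, against the same 1.98%. The kinase partner gene Tab1 had 354.9, 422.5 and 375.1 against 300.5, 339.1 and 330.4, at -0.25 ± 0.12 with a limma p of 0.0656, and 0.0461 in the blocked fit. Stat5a, a transcription factor downstream of many interleukin receptors, had 155.4, 197.9 and 150.3 against 127.3, 155.1 and 112.6, at -0.35 ± 0.18 with a limma p of 0.0843, and 0.0397 in the blocked fit. Nfkbiz, an NF-kappa-B target and regulator, had 82.5, 91.3 and 97.5 against 124.3, 108.0 and 107.3, at 0.32 ± 0.17. Of the 29 signalling genes above 50, groups did not overlap for 2 lower in NT3, Tab1 and Sigirr, and for 1 higher, Nfkbiz. Over all genes above 50 the shares were 3.27% and 2.35%. The groups overlapped for Stat5a. Without control replicate 2 the log2 fold changes were -0.18 for Tab1, -0.23 for Stat5a and 0.33 for Nfkbiz. Ackr3 moved from 0.21 to 0.10 and Cd74 from -0.33 to -0.10. Of 26 other cytokine and receptor genes 12 were higher and 14 lower. An unadjusted limma p under 0.05 was reached by 1 of the 26, against 2.14% of all genes. This was Ifng, with a limma p of 0.0465, at the low signals given above. No gene of the 3 lists passed the adjusted test, and the median of all genes was -0.01.

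Macrophage markers, which come from the cells that make and answer many of these cytokines, were higher in NT3 for 18 of 21 genes, with a median log2 fold change of 0.13, and 0 had an unadjusted limma p under 0.05. Their summed signal was 5263 to 5994 in control and 5786 to 6473 in NT3. Lymphocyte and natural killer cell markers summed to 771.1 to 933.8 and 703.9 to 781.9, with 5 of 20 higher. Neutrophil and mast cell markers summed to 421.9 to 991.3 and 368.4 to 921.4, with 5 of 11 higher, and endothelial markers to 3271.5 to 3451.5 and 3268.8 to 3449.5, with 4 of 16 higher. Over all genes 6651 of 14217 were higher in NT3. Only 3 of the 20 lymphocyte and natural killer cell markers were above 50, and 3 of the 11 neutrophil and mast cell markers. The part of any of the cell types named here in the chemokine and interleukin signals was not tested.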

How the data were processed

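RNA of 6 whole-ovary cultures was measured on Affymetrix 1-colour arrays. For each array the authors deposited linear intensity values of its probe sets, made with MAS5 per the submitters' processing notes (version not given in the sources used here). After 57 control probe sets were removed, 31042 were taken to log2 with no filter and no further scaling, with a floor of 0.1 for the 5 that held a 0. NT3 was compared with control by the 2-sided test of limma 3.58.1 in R 4.3.3 (lmFit, then eBayes with its variance trend), with Benjamini-Hochberg adjustment over all probe sets. The fit was tested on simulated arrays drawn independently of each other. That setting lacks the correlation of same-numbered arrays found in these data, and nothing is read from it here. Genes were named from the array annotation, in which 20826 probe sets had 1 symbol, 436 several and 9780 none. The 2 probe sets of Il13ra1 also carry a pseudogene symbol and were left out. The Entrez identifiers of all 89 members were found in the RefSeq table (GRCr8), with 0 symbols changed.

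The members, lists and tests were chosen with earlier results of these data known. The naming rule took members with a mean signal of at least 200, the 2 brightest of each role, the 10 with the lowest p above 50, and a fixed set of family members, 51 in all. Of the other lists it took up to 3 genes with the lowest p above 50. Some of these, among them Cmtm6, Crlf2, Tnf and Spp1, are not described here. Further members were added after their values were seen, among them Ccl4, Ccl6, Ccl27, Cxcl9, Il12b, Il17rc, Il17re and Il3ra. The list genes Cd3e, Cd74, Gdf9, Ifng, Sigirr and Zp3 were also added after their values were seen.

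Control and NT3 samples share replicate numbers. Deviations from group means correlated at 0.244, 0.262 and 0.250 for equal numbers over probe sets above 50 (at most 0.023 for unequal ones), but at 0.026, 0.053 and 0.037 over all probe sets, where low signals weigh most. The numbers were taken to pair the samples from the brighter probe sets, not from the labels. The alternatives were a replicate block, scalings, signal filters, an offset, other variance models, averaging the probe sets of each gene, and each array left out.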

Additional observations from a re-analysis of the deposited data

How the results depend on the processing

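No probe set passed adjustment under any of the alternatives run, and the lowest adjusted limma p of a member named by the rule was 0.977. The number of members with an unadjusted limma p under 0.05 was 0 of 89 as reported. With the replicate block (paired by number) 0 were higher and 2 lower, Ccl20 and Cxcr5, beside 143 and 245 of 14217 genes. Without the variance trend it was 5, all with mean signals below 50 (Ccr4, Il10ra, Il13, Il2ra and Il2rg). It was 1 with array weights, Il13, and 1 to 5 with single arrays left out. Counts over all genes for the trend and weight settings are not given here, and nothing is read from those 2 settings. The same count over all probe sets, 752 as reported, was 240 and 123 with filters at the 40th and 60th percentile, where fewer probe sets were tested, and 706 to 1217 with single arrays left out, the highest without control replicate 2. The median log2 fold change of the members, 0.0051, ran from -0.061 without control replicate 1 to 0.087 without NT3 replicate 3. Of the 51 members named by the rule, 27 changed sign under at least 1 alternative, and 23 of 724 alternative values moved by more than 1 SE. With the block, unadjusted limma p-values of Ackr3, Cd74, Tab1, Stat5a and the mast cell marker Mcpt1 also passed under 0.05. The share of all genes above 50 was then 1.98%, and none of these passed adjustment. For members below a signal of 50 the signal over background limits every value.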
